A study of Mus musculus with 4 samples.

Results

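The kinase Cdk1, its B-type cyclins and the enzymes that add or remove the inhibitory phosphates on Cdk1 were followed in the RNA of mouse oocytes. The set was chosen by gene symbol and held 10 of the 23235 genes listed: Cdk1, the cyclins Ccnb1, Ccnb2 and Ccnb3, the phosphatases Cdc25a, Cdc25b and Cdc25c, and the kinases Wee1, Wee2 and Pkmyt1. All 10 were found, and in each comparison all 10 reached 5 FPKM in at least 1 of its 2 libraries. FPKM counts fragments relative to the length of a transcript and to all mapped fragments of the library, so a level is a share of the library and can be compared between genes. A lower share and fewer transcripts per oocyte cannot be told apart. The cDNA was primed by oligo-dT, so a level covers RNA captured through its poly(A) tail, and tail length was not measured.

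Each group was 1 library made from 10 pooled oocytes, with no replicates, and no test was run, so every value is that of a single library. All mice had a C57B6 background and carried the floxed genotype Dcaf13fl/fl, which is the whole labelled genotype of the controls. The deletion mice also carried Gdf9-Cre, a Cre recombinase under the promoter of the oocyte gene Gdf9. How many mice gave the oocytes is not given in the sources used here. Growing oocytes were taken from mice of 13.5 to 14.5 days, listed as 14 days. Fully grown oocytes came from mice listed as 23 days that had received 5 IU of PMSG, a gonadotropin that stimulates follicle growth, 48 h before. Age, PMSG and stage therefore cannot be told apart. Dcaf13 itself stood at 96.1 FPKM (control) and 38.9 (deletion) in growing oocytes and 160.2 (control) and 64.0 (deletion) in fully grown ones.

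Oocytes stay arrested in the first meiotic prophase for most of their life. Entry into meiotic division needs Cdk1 bound to a B-type cyclin, the kinase complex called maturation promoting factor. During arrest Wee2 and the membrane-bound Pkmyt1 phosphorylate Cdk1 near its amino terminus, and the Cdc25 phosphatases are restrained. Cyclin B is kept low by the anaphase promoting complex with its activator Fzr1. At resumption the balance turns, Cdc25 removes the phosphates and Cdk1 becomes active. Wee2 is the oocyte-specific form of the Wee kinases, and Cdc25b is the form required for resumption in the mouse.

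The libraries carried the defining markers of oocytes. All 14 oocyte markers looked at were above 1 FPKM in at least 1 library, with a median per library of 1278 to 1640 FPKM. Markers of theca and stroma summed to 0.499 to 1.23 FPKM over 7 genes, and none of them reached 1 FPKM. Of the 10 markers of granulosa and cumulus cells, 5 reached 1 FPKM in some library. The markers of blood and immune cells had 1 gene of 5 above 1 FPKM, and those of endothelium 1 of 3 (Pecam1, 11.6 to 18.7 FPKM). The haemoglobin genes Hbb-b1 and Hba-a1 and the endothelial gene Cdh5 were listed at 0 throughout. The symbols of the deposited table were re-paired with its values, as set out under the processing. This left 7 of the 10 genes on their deposited row and moved Wee1, Wee2 and Pkmyt1, each by 2 rows.

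Cdk1 (chromosome 10, minus strand, 68799383 to 68815660, mm9), the catalytic subunit, was the steadiest of the 10 genes. It stood at 60.5 FPKM (control) and 63.3 (deletion) in growing oocytes and 61.1 (control) and 54.6 (deletion) in fully grown ones. The 4 libraries lay within 0.21 of each other in log2(FPKM + 1), the scale used for all differences below, with a pseudocount of 1 that understates the change of low genes. Between 91.6% and 92.5% of all listed genes were lower than Cdk1 in each library. The stretch of its coding sequence that the kinases and phosphatases of this set act on is shown because it ties the other members to Cdk1. Codons 8 to 21 are printed, read from the minus strand in GENCODE (GRCm38, chr10:69346206-69350111, across an intron), and capitals mark codons 14 and 15, the threonine and tyrosine that carry the inhibitory phosphates.
Cdk1: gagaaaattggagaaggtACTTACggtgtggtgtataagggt

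Among the cyclins, Ccnb1 was the most abundant gene of the set in every library. Ccnb1 (chromosome 13, minus strand, 101548694 to 101556441, mm9), the main partner of Cdk1 at meiotic entry, stood at 456 FPKM (control) and 362 (deletion) in growing oocytes. In fully grown oocytes it stood at 481 FPKM in the control and 309 in the deletion library. Both deletion libraries thus lay below both control libraries, at 79.3% of control in growing and 64.1% in fully grown oocytes, which is a difference of -0.33 and -0.64 on the log2 scale. Of the 7413 genes at 5 FPKM or more in a fully grown library, 3.75% had a lower change than Ccnb1, and 14.9% of 8010 did in growing oocytes. Among the 1291 genes at 100 FPKM or more in a fully grown library, a level chosen after the values were seen, 1.08% had a lower change. In growing oocytes 9.83% of 1282 such genes did.

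Ccnb2 (chromosome 9, minus strand, 70255496 to 70269361, mm9) encodes a second B-type cyclin that can also activate Cdk1 in oocytes. It stood at 266 FPKM (control) and 314 (deletion) in growing oocytes and 222 (control) and 246 (deletion) in fully grown ones. Its deletion libraries were above the control of the same stage, by 0.24 and 0.15 on the log2 scale, where those of Ccnb1 were below. Of the genes at 5 FPKM or more, 33.2% had a higher change than Ccnb2 in growing and 36.6% in fully grown oocytes. Its fully grown deletion library lay below its growing control, so deletion and control libraries overlapped. Both growing libraries lay above both fully grown ones. GENCODE lists a pseudogene of Ccnb1 and one of Ccnb2, and how reads matching both copies were assigned was not stated, so these levels may hold reads of either. The ratio of Ccnb1 to Ccnb2 FPKM was 1.72 in the growing control and 2.17 in the fully grown control library, against 1.15 and 1.25 in the deletion libraries of the same stages. Ccnb1 made up 62.4% and 67.3% of the summed FPKM of the 3 B-type cyclins in the controls and 53.2% and 54.6% in the deletion libraries. The deletion libraries were thus nearer to equal levels of Ccnb1 and Ccnb2 at both stages. The summed level of the 3 cyclins was 731 FPKM (control) and 679 (deletion) in growing oocytes and 715 (control) and 565 (deletion) in fully grown ones. Per Cdk1 FPKM, Ccnb1 stood at 7.54 and 7.87 in the controls and at 5.71 and 5.65 in the deletion libraries.

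Ccnb3 (X chromosome, minus strand, 6556778 to 6618745, mm9), a cyclin expressed in meiosis and needed in female mice to leave meiosis I, was far less abundant. It stood at 9.03 FPKM (control) and 4.03 (deletion) in growing oocytes and 11.8 (control) and 10.5 (deletion) in fully grown ones. The growing deletion library was the low one of the 4, and the other libraries lay within 1.30-fold of the growing control. Growing deletion oocytes were at 44.6% of control, a difference of -0.996, just short of the size of 1 that counts as changed here. Over growth in the deletion Ccnb3 rose by 1.20, or 2.62-fold, against a difference of 0.35 in controls.

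The destruction boxes of the cyclins are shown because they are the degron through which the anaphase promoting complex has cyclin B removed, and because they show how the 3 cyclins differ. Each line gives 15 codons read from the minus strand in GENCODE (GRCm38), with the codons of arginine, of leucine or phenylalanine and of asparagine in capitals. The boxes start at codon 42 of Ccnb1 (chr13:100785766-100785810), codon 32 of Ccnb2 (chr9:70419025-70419069) and codon 54 of Ccnb3 (chrX:7020126-7025638, across an intron). The same pattern of residues matched again later in Ccnb2 (2 matches in all) and Ccnb3 (3 matches), and the match nearest the start is printed. Over the 27 bases of the box, Ccnb1 and Ccnb2 shared 17, and Ccnb3 shared 16 with either. The capital in the middle is a leucine codon in Ccnb1 and Ccnb2 and a phenylalanine codon in Ccnb3.
Ccnb1: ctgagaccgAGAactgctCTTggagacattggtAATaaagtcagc
Ccnb2: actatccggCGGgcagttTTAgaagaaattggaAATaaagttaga
Ccnb3: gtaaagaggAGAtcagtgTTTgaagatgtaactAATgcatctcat

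**Figure D1:**
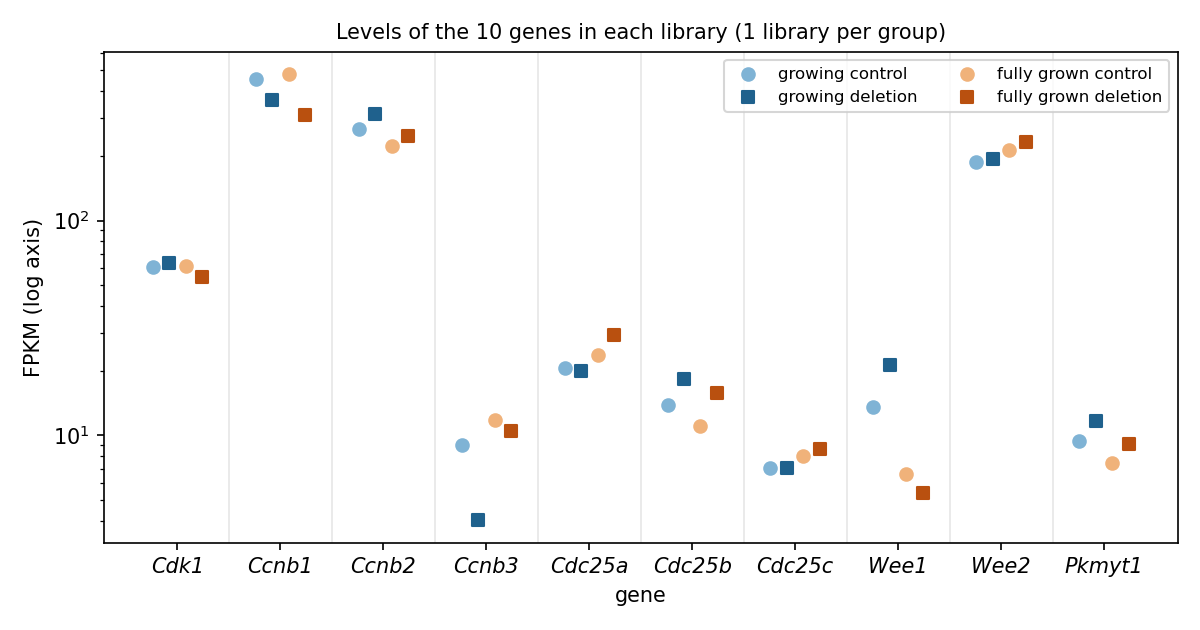
Level of each of the 10 genes (FPKM, log axis) in the 4 libraries, 1 point per library, with circles for control and squares for deletion. Ccnb1, Ccnb2 and Wee2 are at 188 FPKM or more in all libraries, Ccnb1 is lower in both deletion libraries, Ccnb3 is low in the growing deletion library at 4.03 FPKM, and Wee1 spans 5.41 to 21.3 FPKM.

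The promoters of Ccnb1 and Ccnb2 are shown because these genes lay on opposite sides of control in both deletion comparisons. For Ccnb2 the differences were small, 0.24 and 0.15. RefSeq (GRCm38.p6) gave a window from 250 bases before to 50 bases after the start for 7 of the 10 genes. A pair of motifs known from cell cycle promoters was searched on both strands, the letters CCAAT of the site of the factor NF-Y and the letters TTTGAA of the cell cycle genes homology region. The motifs can share at most 1 base at their ends. CCAAT was found in 6 of the 7 windows and in 37.4% of all 32851 windows, and TTTGAA in 2 of the 7, those of Cdk1 and Ccnb2, and in 17.9% of all. Ccnb1 had CCAAT at 99 and 67 bases before the start and no TTTGAA. Ccnb2 had CCAAT at 87, 54 and 21 bases before the start, and TTTGAA at 167 bases before and 4 bases after it. Only the window of Ccnb3 held neither. A match describes letters and is no evidence of binding. Only these exact letters were searched, and variants of them were not, so a window without a match may still hold such a site. The windows are chr13:100786437-100786736 and chr9:70421505-70421804, both read from the minus strand, with the motifs in capitals.
Ccnb1: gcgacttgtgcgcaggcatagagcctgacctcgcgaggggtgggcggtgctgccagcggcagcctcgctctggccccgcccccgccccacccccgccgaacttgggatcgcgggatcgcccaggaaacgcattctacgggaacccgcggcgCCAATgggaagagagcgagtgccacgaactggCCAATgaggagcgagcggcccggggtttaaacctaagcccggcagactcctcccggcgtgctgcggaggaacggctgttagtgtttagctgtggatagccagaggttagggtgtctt
Ccnb2: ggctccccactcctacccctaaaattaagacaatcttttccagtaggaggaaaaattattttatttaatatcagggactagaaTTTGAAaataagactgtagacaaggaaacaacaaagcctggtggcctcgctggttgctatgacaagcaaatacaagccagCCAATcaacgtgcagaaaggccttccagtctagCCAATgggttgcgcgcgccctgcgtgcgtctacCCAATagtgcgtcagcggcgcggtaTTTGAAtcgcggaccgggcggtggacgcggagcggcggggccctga

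Of the Cdc25 phosphatases, Cdc25a was the most abundant and Cdc25b the one that was higher in both deletion libraries than in both controls. Cdc25b (chromosome 2, plus strand, 131012684 to 131024247, mm9) was measured at 13.9 FPKM (control) and 18.3 (deletion) in growing oocytes. In fully grown oocytes it stood at 11.05 FPKM in the control and 15.8 in the deletion library. The difference was 0.38 in growing and 0.48 in fully grown oocytes, and 21.1% and 10.1% of the genes at 5 FPKM or more had a higher one. With a trend over GC content and length removed, these differences were smaller, at 0.25 and 0.32. Spef1, whose exons overlap those of Cdc25b on the opposite strand in GENCODE, was at most 0.542 FPKM in any library. Gm3550 overlaps Cdc25c in the same way and was not analysed here.

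Cdc25a (chromosome 9, plus strand, 109778083 to 109796394, mm9), which also acts in the mitotic cycle, stood at 20.6 FPKM (control) and 19.96 (deletion) in growing oocytes. It stood at 23.7 FPKM in the fully grown control and was highest in the fully grown deletion library at 29.3. Cdc25c, a form that mice can do without, stood at 7.05 FPKM (control) and 7.02 (deletion) in growing oocytes and 8.06 (control) and 8.67 (deletion) in fully grown ones. Both fully grown libraries were above both growing ones for these 2 genes. The ratio of Cdc25a to Cdc25b was 1.48 and 2.15 in growing and fully grown controls and 1.09 and 1.85 in the deletion libraries. Together the 3 phosphatases summed to 41.5 FPKM (control) and 45.3 (deletion) in growing oocytes and 42.9 (control) and 53.8 (deletion) in fully grown ones. Their catalytic loop is shown for the 2 more abundant forms, since it removes the phosphates from the Cdk1 codons printed above. Each line gives 13 codons of the plus strand (GENCODE, GRCm38, chr9:109889801-109889839 and chr2:131194719-131194757), with the catalytic cysteine (codon 421 of Cdc25a, codon 483 of Cdc25b) and the arginine of the loop in capitals.
Cdc25a: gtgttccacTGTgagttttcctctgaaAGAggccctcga
Cdc25b: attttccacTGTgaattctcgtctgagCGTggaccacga

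Among the kinases that inhibit Cdk1, Wee2 held most of the RNA and Wee1 varied most. Wee2 (chromosome 6, plus strand, 40392862 to 40416814, mm9) was measured at 188 FPKM (control) and 192 (deletion) in growing oocytes and 212 (control) and 233 (deletion) in fully grown ones. Both fully grown libraries were above both growing ones, by 0.17 in controls and 0.28 in the deletion. Wee1 (chromosome 7, plus strand, 117265573 to 117286813, mm9), the form found in most cells, stood at 13.6 FPKM (control) and 21.3 (deletion) in growing oocytes. At the end of growth it stood at 6.63 FPKM in the control and 5.41 in the deletion library. Its fully grown libraries lay below its growing ones in both genotypes. Wee1 fell by 1.80 over growth in the deletion, to 25.4% of the growing level, and the difference in controls was -0.93, or 48.9% of the growing level. These values rest on the re-paired row: the row deposited under the symbol Wee1 gave 0.24 over growth in the deletion. The level of Wee2 rests on its re-paired row too, since the row deposited under its symbol held 0.318 to 3.89 FPKM.

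The sign of the deletion difference of Wee1 was not the same at the 2 stages, 0.61 in growing and -0.25 in fully grown oocytes, and this difference was not tested. Of the genes at 5 FPKM or more, 9.11% had a higher change than Wee1 in growing oocytes, and 19.2% a lower one in fully grown oocytes. The ratio of Wee2 to Wee1 was 13.9 (control) and 9.04 (deletion) in growing oocytes and 32.0 (control) and 43.1 (deletion) in fully grown ones. Wee1 thus made up 6.42% and 9.45% of the summed FPKM of the 3 kinases in growing oocytes and 2.93% and 2.18% in fully grown ones.

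Pkmyt1 (chromosome 17, plus strand, 23863303 to 23873696, mm9), the membrane-bound kinase, stood at 9.46 FPKM (control) and 11.6 (deletion) in growing oocytes and 7.47 (control) and 9.16 (deletion) in fully grown ones. The deletion library was above control by 0.27 in growing and 0.26 in fully grown oocytes, and both fully grown libraries were below both growing ones. With a trend over GC content and gene length removed, the deletion differences of Pkmyt1 were 0.04 and 0.01 and the growth differences -0.01 in either genotype. Paqr4, whose exons overlap those of Pkmyt1 on the opposite strand in GENCODE, had levels like it, 9.38, 16.3, 8.06 and 10.5 FPKM in the same order. How reads of the 2 strands were counted is not given in the sources used here, so reads of these 2 genes cannot be told apart. The 3 kinases summed to 211 FPKM (control) and 225 (deletion) in growing oocytes and 226 (control) and 248 (deletion) in fully grown ones. Kinases over Cdc25 phosphatases, as summed FPKM, came to 5.09, 4.97, 5.28 and 4.60 in the same order, lowest in the fully grown deletion library.

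**Figure D2:**
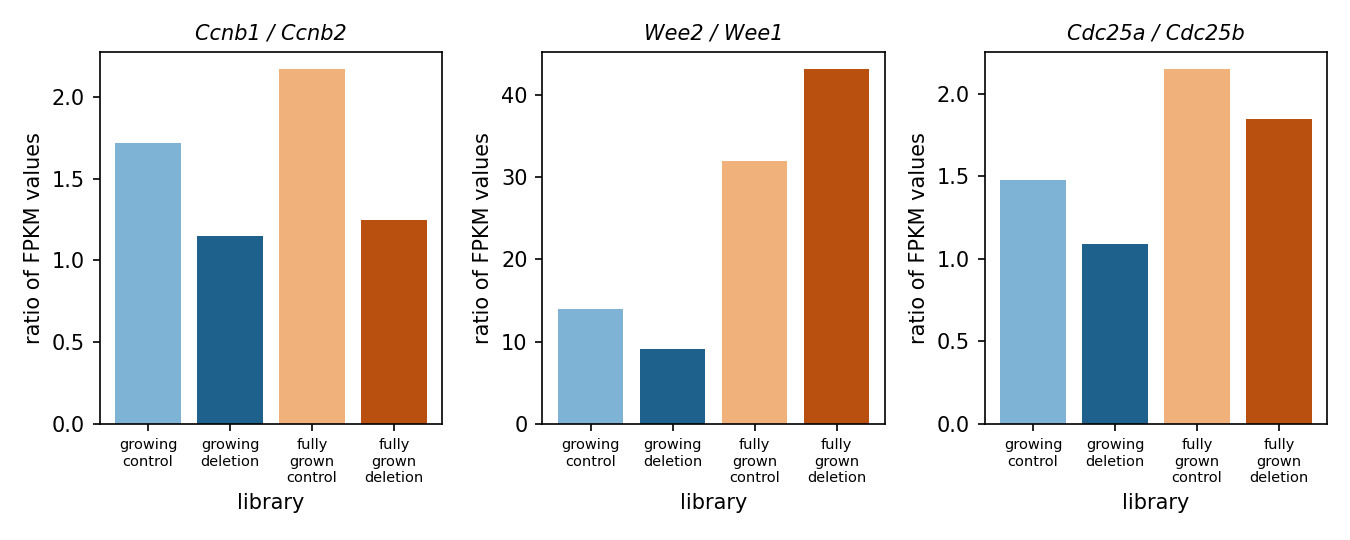
Ratio of 2 FPKM values within each library (bars from 0, 1 library per group) for Ccnb1 over Ccnb2, Wee2 over Wee1 and Cdc25a over Cdc25b. The first ratio is 1.15 and 1.25 in the deletion libraries against 1.72 and 2.17 in the controls, and the second is 32.0 and 43.1 in fully grown against 13.9 and 9.04 in growing oocytes.

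By mean level over the 4 libraries the order was Ccnb1 (402 FPKM), Ccnb2 (262), Wee2 (206), Cdk1 (59.9), Cdc25a (23.4), Cdc25b (14.8), Wee1 (11.7), Pkmyt1 (9.43), Ccnb3 (8.85) and Cdc25c (7.70). The first 4 kept this order in each library. The ranges of Ccnb1 and Ccnb2 over the libraries overlapped, as did those of Ccnb2 and Wee2, whose levels were 1.05-fold and 1.06-fold apart in the fully grown libraries. The ranges of Wee2 and Cdk1, of Cdk1 and Cdc25a, and of Cdc25a and Cdc25b did not overlap, and those of neighbours further down did. Wee1 was the fifth gene in the growing deletion library, ahead of Cdc25a.

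The comparison of deletion with control sets oocytes of mice with Gdf9-Cre beside those of mice labelled without it, at each stage. Presence of Cre and loss of Dcaf13 therefore cannot be told apart. The size rule calls a gene higher or lower if its log2(FPKM + 1) differs by 1 or more and 1 of the 2 libraries has 5 FPKM or more. It compares 2 libraries, not 2 conditions. In growing oocytes none of the 10 genes was past it, where 2.62% of 8010 genes were higher and 2.51% lower. Ccnb3 was past it with a pseudocount of 0.1 (-1.14), where 3.10% of genes were lower. It was also past it after rescaling of the libraries by their median ratio (-1.04), where 215 of 7965 genes were lower. In fully grown oocytes again none of the 10 was past the rule, where 1.08% of 7413 genes were higher and 1.09% lower. That split of 80 genes higher and 81 lower became 63 and 98 with median-ratio rescaling. The median difference of the 10 genes was 0.05 in growing and 0.11 in fully grown oocytes, beside 0.08 and 0.04 over all genes at the minimum. In each comparison 6 of the 10 were above control and 4 below. Over all genes at the minimum, 4685 of 8010 were above control in growing and 4076 of 7413 in fully grown oocytes.

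Of the 10 genes, 2 had both deletion libraries on one side of both controls, Ccnb1 below and Cdc25b above. Of the 8235 genes that had 5 FPKM or more in any library, 34.8% were separated in this way, so the count is below that share. With growth, 7 of the 10 were separated by stage, where 52.4% of genes were. Ccnb3, Cdc25a, Cdc25c and Wee2 were higher in fully grown oocytes, and Ccnb2, Wee1 and Pkmyt1 lower.

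**Figure D3:**
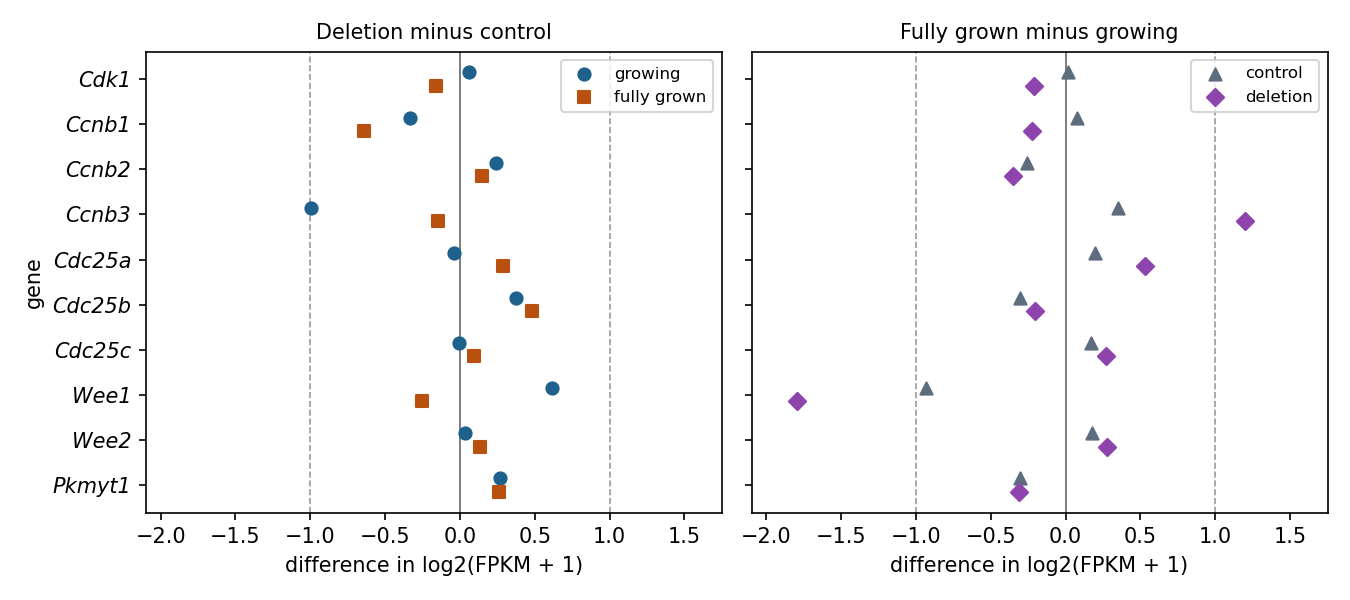
Difference in log2(FPKM + 1) of each gene between deletion and control (left, circles growing, squares fully grown) and between fully grown and growing oocytes (right, triangles control, diamonds deletion), with dashed lines at -1 and 1. Only the growth differences of Ccnb3 (1.20) and Wee1 (-1.80) in the deletion lie beyond a dashed line, and Ccnb3 in growing oocytes (-0.996) lies next to one.

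The comparison of fully grown with growing oocytes describes growth. In controls none of the 10 genes was past the size rule, where 1.11% of 7661 genes were higher and 3.07% lower. Wee1 was past it with a pseudocount of 0.1 (-1.02), where 4.01% of genes were lower. In the deletion Ccnb3 was higher and Wee1 lower, where 2.70% of 7957 genes were higher and 8.75% lower. Both calls share the growing deletion library, in which Ccnb3 was lowest and Wee1 highest of the 4, with the deletion comparison in growing oocytes. Without that library, growth in controls had the same signs, 0.35 for Ccnb3 and -0.93 for Wee1. The median growth difference of the 10 genes was 0.05 in controls and -0.21 in the deletion, beside -0.06 and -0.07 over all genes at the minimum.

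Markers of granulosa and cumulus cells also had their lowest sum, 12.4 FPKM, in the growing deletion library, against 23.6 to 28.3 in the other 3. Most of it came from Cyp19a1, the aromatase gene, at 7.75 FPKM there and at 16.8 to 19.0 in the others. Inha, an inhibin subunit gene, was also lowest there, at 2.16 FPKM against 6.53 in the growing control, 2.40 in the fully grown control and 4.99 in the fully grown deletion library. Fshr, Kitl and Inhba were at most 1.25, 1.42 and 1.11 FPKM, and the other 5 markers, Foxl2 and Amh among them, stayed under 1 FPKM. Inhba and Has2 were also lowest in the growing deletion library. Fshr was not, at 0.978 FPKM there against 0.327 and 0.787 in the fully grown control and deletion libraries. Kitl was at 1.03 FPKM there against 0.761 in the fully grown deletion library. Foxl2, Amh, Fst and Nr5a1 were not lowest there either. The markers thus did not all go the same way, and their part in the Ccnb3 difference was not tested. The genes with the pattern most like Ccnb3 over the 4 libraries, by Euclidean distance of centred log2(FPKM + 1) among 7359 genes, were Ccdc11 (distance 0.0391), Popdc2 (0.0824) and Glce (0.0825). Glce stood at 30.6, 14.7, 41.9 and 35.8 FPKM (control and deletion in growing, then control and deletion in fully grown oocytes). Those most like Wee1 were Sp3 (0.0867), Ctu2 (0.117) and Tceb3 (0.118), and Sp3 stood at 4.71, 7.64, 2.17 and 1.47 FPKM in the same order.

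The wider control of Cdk1 was read from a list of 41 other genes in 6 groups, 36 of which reached the minimum in growing oocytes and 33 in fully grown oocytes when deletion was compared with control. In growing oocytes 1 of the 36 was higher by the size rule, beside 2.62% of all genes at the minimum, none was lower, and the median was 0.08. In fully grown oocytes none of the 33 was past it, and the median was -0.05. The gene that was higher was Ccne1, which encodes cyclin E1, a partner of Cdk2, at 20.8 FPKM against 8.02 in the growing control. Over growth Ccne1 was the 1 gene of 35 past the rule in controls, lower at 3.30 FPKM (-1.07), beside 3.07% of all genes. That call was lost with a minimum of 10 FPKM and with the GC and length trend removed (-0.97). In the deletion 2 of 36 were lower, beside 8.75% of all genes, Ccne1 at 3.90 FPKM (-2.15) and the kinase gene Cdk2 at 7.10 against 19.3 FPKM (-1.32). Like Wee1, both had their highest value in the growing deletion library.

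Of the 36 list genes at 5 FPKM or more in any library, 13 had both deletion libraries on one side of both controls, beside the 34.8% of all genes. The most abundant gene of each group follows. Cks2, a small subunit that binds Cdk1, stood at 745 FPKM (control) and 664 (deletion) in growing oocytes and 899 (control) and 715 (deletion) in fully grown ones. Both deletion libraries were below both controls, as for Ccnb1. Cdk7, the kinase that activates Cdk1 on its loop, stood at 71.9 and 66.8 FPKM in the growing and fully grown controls and at 43.1 and 48.9 in the deletion libraries. Fbxo5, which encodes the anaphase promoting complex inhibitor Emi1, stood at 118.8 and 100.2 FPKM in the controls and at 74.1 and 87.8 in the deletion libraries. Fzr1, named after its values were seen, stood at 72.5 and 140.6 FPKM in growing control and deletion oocytes, a difference of 0.95, and at 52.2 and 71.2 in fully grown ones. The scaffold gene Ppp2r1a of the phosphatase PP2A, which opposes Cdk1, was above control at both stages, by 0.24 and 0.45. The 14-3-3 gene Ywhaz, whose product restrains Cdc25, was at 331 to 411 FPKM, and the Cdk inhibitor gene Cdkn1b at 19.5 to 24.4 FPKM.

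**Figure D4:**
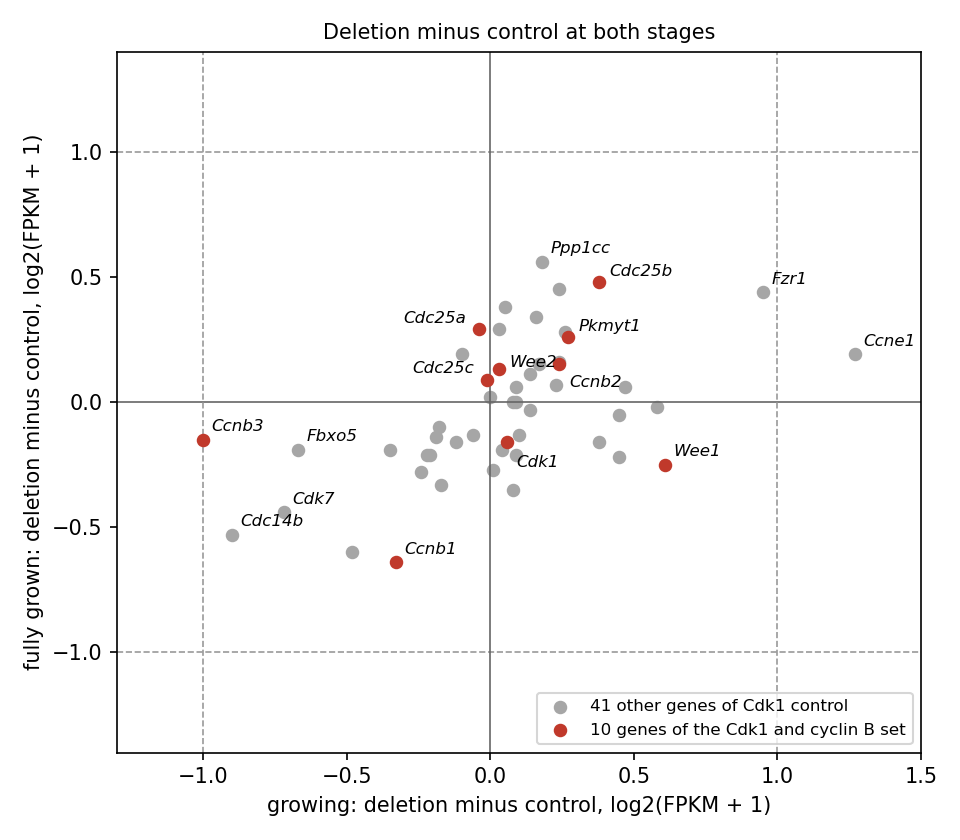
Deletion minus control in log2(FPKM + 1) in growing (x axis) and fully grown oocytes (y axis), 1 point per gene, for the 10 genes (red) and the 41 other genes of Cdk1 control (grey), with dashed lines at -1 and 1. Ccnb1 (-0.33 and -0.64) and Cdc25b (0.38 and 0.48) lie on the same side of 0 on both axes, Wee1 (0.61 and -0.25) does not, and Ccne1 is the only point past 1, on the x axis.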

How the data were processed

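Polyadenylated RNA of 4 libraries was measured by Smart-seq2, an oligo-dT primed full-length cDNA method, with Tn5 library preparation, per the labels' protocols. The deposited values are FPKM, 1 row per gene symbol, made by the authors, and mm9 is the build that the submitters' processing notes name. Named without roles or settings in the submitters' processing notes are Cufflinks 2.2.1, TopHat2 2.0.11, Bowtie2 2.1.0 and CASAVA 1.8. The sources used here do not give gene models, strand, filters or the treatment of reads with several matches, and depth is unknown. The most common ratio among low values put the relative depth of the other libraries at 1.01 to 1.10 of the growing control. Per-sample tables were identical to the whole table.

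Symbols were sorted in byte order and given the value rows in file order. The pairing is inferred from the values: the 14 oocyte markers had a median of 6.82 FPKM as deposited and 1473 after it. It was not checked with the submitters. Differences were taken in log2(FPKM + 1) with Python 3.11.15 and pandas 2.3.3, and the steps were tested on simulated data. No test was run, with 1 library a group. A fit of genotype and stage together, which pools the 4 libraries, was not made. The members, gene lists and the rule for named genes (all 10 members, list genes past the size rule, the most abundant gene of each list group, and the 3 nearest patterns of members with a range of at least 1) were chosen with earlier results of these data known. Starts are given 1-based, since the deposited start and end differ by the RefSeq gene length in 41.0% of genes and by 1 less in 2.46%. The alternatives were a pseudocount of 0.1, no minimum or 10 FPKM, median-ratio rescaling, removal of a trend with GC content and length, and the deposited pairing.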

Additional observations from a re-analysis of the deposited data

Results flagged for a closer look

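Some differences lay on opposite sides of 0 at the 2 stages or in the 2 genotypes, with 1 library a group and the difference not tested. For deletion minus control, Wee1 was above 0 in growing and below 0 in fully grown oocytes, and the fully grown difference minus the growing one was -0.87 on the log2 scale. The same quantity was -0.22 for Cdk1, 0.33 for Cdc25a and 0.10 for Cdc25c, with Cdc25a and Cdc25c below 0 in growing and above 0 in fully grown oocytes. Cdk1 was at 0.06 in growing and -0.16 in fully grown oocytes. In growing oocytes the values of Cdc25a and Cdc25c were -0.04 and -0.01, and their sign was not kept under every alternative. For fully grown minus growing, Cdk1 and Ccnb1 were slightly above 0 in controls (0.01 and 0.08) and below 0 in the deletion (-0.21 and -0.23). The deletion difference minus the control one was -0.31 for Ccnb1. For Cdk1 it was -0.22, which is by arithmetic the same quantity as the -0.22 above and no second observation.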

How the results depend on the processing

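No paired analysis was possible because each group has 1 library, so that no replicate numbers pair across groups. A fit of genotype with stage as the block was not run. Of 40 differences (10 genes in 4 comparisons), 38 kept their side of the size rule with a pseudocount of 0.1. After the libraries were rescaled by median ratio 39 did, and with the GC and length trend removed all 40. With the deposited pairing 37 did, but 7 of the 10 genes have the same row there and could not change. Only the differences of Wee1, Wee2 and Pkmyt1 could. With no minimum or a minimum of 10 FPKM the members could not change side. All 10 genes reached 5 FPKM in each comparison, and a stricter minimum can only remove calls. The called differences, Ccnb3 and Wee1 over growth in the deletion, each had a library above 10 FPKM. Members past the rule in growing deletion against control numbered 1 in place of 0 with a pseudocount of 0.1 and with rescaling (Ccnb3), and 1 with the deposited pairing, where the row of Wee1 had -1.32. Over growth in controls they numbered 1 in place of 0 with a pseudocount of 0.1 and with the deposited pairing (Wee1, -1.02 and -1.17). Over growth in the deletion they numbered 1 in place of 2 with the deposited pairing, where the row of Wee1 had 0.24, above 0. The row deposited under Wee2 had -1.89 in growing deletion against control and -1.12 over growth in controls. It was not called because it lay under 5 FPKM. Of the 41 other genes, those past the rule over growth in controls numbered 2 in place of 1 with a pseudocount of 0.1 and with rescaling (Ccnh, 1.04 and 1.03, added), 2 with no minimum (Ppp2cb, -1.05, added), and 0 with a minimum of 10 FPKM, which tests fewer genes, and with the GC and length trend removed (Ccne1, -0.97). Over all genes, the higher and lower calls without and with the stricter minimum numbered 370 and 330 against 118 and 113 (deletion, growing), 143 and 133 against 43 and 59 (deletion, fully grown), 133 and 425 against 59 and 131 (growth, control) and 355 and 1101 against 138 and 422 (growth, deletion). For growth in controls they numbered 106 and 307 of 7661 genes with a pseudocount of 0.1 and 95 and 220 of 7691 with rescaling. With the GC and length trend removed they numbered 76 and 246 of 7588. The deposited pairing must give the same counts over all genes as the main setting, since re-pairing only assigns the symbols to other value rows. Apart from these choices, the cause was not tested. Counting error cannot be given, since FPKM holds no depth, and weighs most on Ccnb3, Cdc25c, Wee1 and Pkmyt1, the least abundant members.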
